A study of Mus musculus with 12 samples.

Results

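Limb buds of Lmx1b -/- mouse embryos were compared with wild-type limb buds at 12.5 days post coitum (dpc), the handplate phase, on 4 of the 12 arrays of the series. The 4 arrays were chosen by their sample titles: 2 hybridised with RNA of Lmx1b -/- limbs (KO) and 2 with RNA of Lmx1b +/+ limbs (WT). All embryos were labelled as strain C57BL/6, and the tissue was the limb bud together with its girdle. The other 8 arrays held KO and WT limbs of 11.5 dpc (limb bud and girdle) and 13.5 dpc (distal limb), also 2 arrays per genotype and stage. Each array carried total RNA of pooled limbs from different embryos, so the 2 replicates of a group were separate pools. A pool of this stage held 3 limbs by the series text and 6 by the extraction protocol; forelimbs and hindlimbs are both named, without their shares in a pool. The labels give no description of the null allele, and name neither the age in somites nor the sex of the embryos. Each stage had its own hybridisation series, in which both genotypes were present.

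Lmx1b encodes a LIM-homeodomain transcription factor made in the dorsal mesenchyme of the limb bud. Wnt7a from the dorsal ectoderm keeps it on, En1 restricts Wnt7a on the ventral side, and limbs that lack Lmx1b develop ventral structures on both sides. The factor is also known for the patterning of the scapula and of the joints and tendons of the dorsal limb. Its homeodomain belongs to a class that binds A- and T-rich sites with the core TAATTA.

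The sequences just before the starts of Emx2 and Apod are shown as examples, because Lmx1b is a DNA-binding factor. Both genes had large and closely replicated losses in KO limbs. Kera had a larger loss, and its window, which held no TAATTA, is not shown. They are RefSeq sequences of the GRCm38.p6 build, 5′ to 3′ on the strand of the gene. The Emx2 window is chr19:59458440-59458689 on the + strand and the Apod window is chr16:31314809-31315058 on the - strand. The short Emx2 site, chr19:59458710-59458739, lies after the start and ends with the window searched below, and its capitals mark TAATTA.
Emx2, 250 bases before the start: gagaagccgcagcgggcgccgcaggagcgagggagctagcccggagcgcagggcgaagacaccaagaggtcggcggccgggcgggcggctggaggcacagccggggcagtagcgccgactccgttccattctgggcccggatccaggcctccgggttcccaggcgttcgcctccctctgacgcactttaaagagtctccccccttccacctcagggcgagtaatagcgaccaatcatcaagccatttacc
Emx2, 30 bases at the end of the searched window: tatgtgatccccgcacTAATTAggctcatg
Apod, 250 bases before the start: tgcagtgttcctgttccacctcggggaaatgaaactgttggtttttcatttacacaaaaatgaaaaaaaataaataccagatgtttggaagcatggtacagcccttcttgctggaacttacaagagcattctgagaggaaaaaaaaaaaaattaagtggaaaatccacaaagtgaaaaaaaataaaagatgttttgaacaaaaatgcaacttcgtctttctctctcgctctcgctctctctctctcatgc
TAATTA, which reads the same on both strands, was searched in windows of 300 bases, 250 before and 50 after each start. Of 32851 windows in the promoter table, 1738 (5.29%) held it. Among the 7 genes that passed the test below, 6 had a window and 1, that of Emx2, held the motif, beginning at base 37 counted from the start. These letters are a description of the window and say nothing of whether the factor binds there.

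Expression values were log2 RMA values as deposited, on which 1 unit is a doubling of signal, and the median of all values was 6.28. RMA values carry no detection call, so a value near this median is a dim probe set rather than a measured absence. For each of 18193 genes, its brightest probe set on average across the 12 arrays was used. The labelled tissue carried its defining markers: Prrx1, a transcription factor of limb mesenchyme, read 12.42 and 12.45 in WT limbs, Tbx5 of the forelimb read 10.91 and 11.14, and Hoxd13 of the distal limb read 12.63 and 12.49. Hindlimb markers were lower: Tbx4 read 7.97 and 7.98 in WT limbs and 8.17 and 7.89 in KO limbs, and Pitx1, which specifies hindlimb identity, read 5.80 and 6.06 in WT limbs and 5.81 and 5.76 in KO limbs, below the median of all values. The root mean square difference between the 2 replicates of a group was 0.36 log2 units for KO limbs of 12.5 dpc, 0.24 for WT limbs of 12.5 dpc, and between 0.14 and 0.27 for the other 4 groups. KO replicate 2 of 12.5 dpc stood apart from the other 3 arrays of its stage, and values of the 2 KO arrays are therefore given separately for the genes and lists that the results turn on. Differences are written as KO minus WT with the standard error of the limma fit, and the call was an adjusted p under 0.05 over all 18193 genes.

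Lmx1b itself was lower in both KO pools. Its brighter probe set read 9.29 and 9.55 in WT limbs and 6.50 and 7.02 in KO limbs. The genotypes did not overlap, and both KO values stayed a little above the median of all values. The difference was -2.66 ± 0.35, a 6.31-fold lower signal, with an adjusted p of 0.0476. A dimmer probe set of the gene read 5.61 and 5.98 in WT limbs against 5.46 and 5.65 in KO limbs, a difference of -0.24 that did not pass (adjusted p = 0.632 over all probe sets, as for further probe sets of other genes). Which exons the probe sets cover, and whether these were deleted, was not analysed here.

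Of 18193 genes, 7 (0.0385%) passed the test: 5 (0.0275%) fell in KO limbs and 2 (0.0110%) rose. At an unadjusted p under 0.05 there were 1981 genes (10.9%), of which 1204 (6.62%) were lower and 777 (4.27%) higher. Beside Lmx1b, the genes that fell were Kera, Emx2, Apod and Cadps2, and the genes that rose were Pax9 and Nfkbiz. In all 7 both KO arrays lay outside the range of both WT arrays, an arrangement found for 19.3% of all genes in the lower direction and 15.0% in the higher. None of the 7 lies on a sex chromosome.

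Kera had the widest gap between genotypes. It encodes keratocan, a small leucine-rich proteoglycan that binds collagen fibrils and is best known from the cornea and from tendon. Its values were 10.00 and 10.03 in WT limbs and 6.37 and 6.34 in KO limbs. The replicates of either genotype thus differed by a few hundredths of a unit, while the KO values sat at about the median of all probe sets. The fitted difference was -3.67 ± 0.33, a 12.7-fold lower signal (adjusted p = 0.00423).

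Emx2 encodes a homeodomain factor required for the scapular blade. It read 8.14 and 8.40 in WT limbs and 5.83 and 6.13 in KO limbs, and the KO values fell below the median of all probe sets. Its difference was -2.29 ± 0.25, or 4.89-fold lower, with an adjusted p of 0.0160. A single probe set represents Emx2, as is the case for Kera.

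Apod encodes apolipoprotein D, a secreted lipocalin of connective tissue cells. Its WT values were 8.33 and 8.50 and its KO values 6.75 and 6.74, so the KO pools were almost identical. The difference was -1.67 ± 0.12, with the smallest adjusted p of the 7 genes, 0.000904. A second, dim Apod probe set read 4.95 and 5.48 in WT limbs against 4.46 and 4.69 in KO limbs, in the same direction without passing.

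Cadps2 encodes a protein that primes dense-core vesicles for release and is best known from neurons. It read 8.06 and 7.87 in WT limbs and 7.12 and 6.82 in KO limbs, a step of about 1 unit that was clear of the spread on either side. The fit gave -0.99 ± 0.13 (adjusted p = 0.0364).

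Pax9, a paired-box factor of the anterior limb mesenchyme and of the sclerotome, moved the other way. Its values were 7.80 and 7.92 in WT limbs and 8.98 and 9.25 in KO limbs, with no overlap. The difference was 1.26 ± 0.15, a 2.39-fold higher signal (adjusted p = 0.0364). Of 2 further Pax9 probe sets, the first differed by 0.86 (adjusted p = 0.400), with WT values of 6.74 and 5.83 and KO values of 6.72 and 7.57, so that a WT and a KO array met. The other differed by 0.23 (adjusted p = 0.647), from 7.79 and 7.76 in WT limbs to 8.02 and 7.98 in KO limbs.

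Nfkbiz encodes an atypical inhibitor-of-NF-kappa-B protein of the nucleus. It read 6.62 and 6.66 in WT limbs and 7.28 and 7.53 in KO limbs, close to the median of all values, and rose by 0.77 ± 0.10 (adjusted p = 0.0364). Its further probe sets differed by 0.20 and 0.29 and did not pass, and in both the genotypes overlapped. The first read 6.65 and 6.27 in WT limbs and 6.54 and 6.79 in KO limbs. The second read 5.01 and 4.49 in WT limbs and 4.85 and 5.22 in KO limbs.

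**Figure D1:**
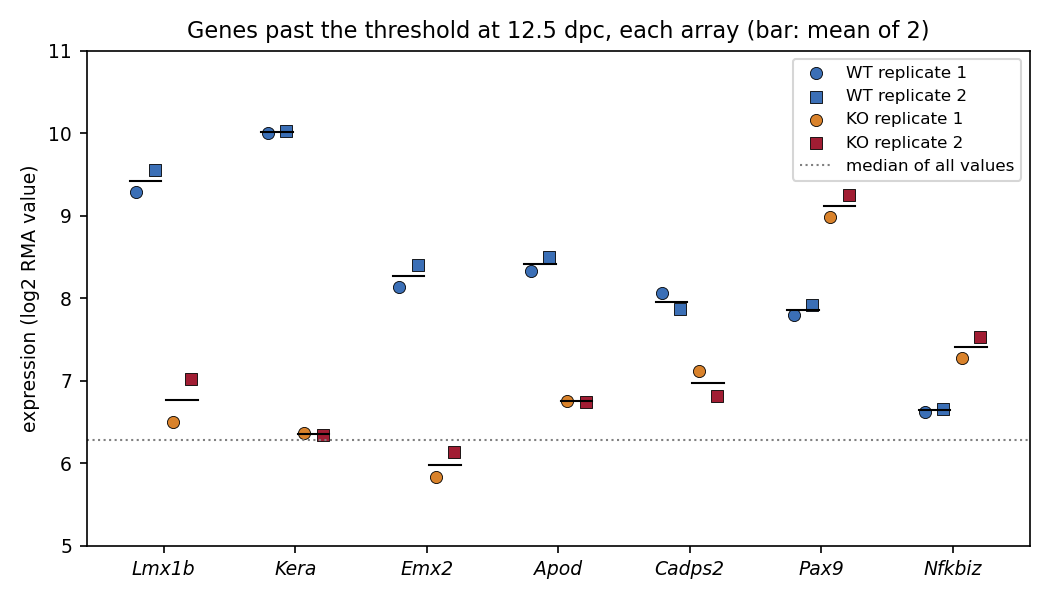
Log2 RMA values of the 7 genes past the threshold on each of the 4 arrays of 12.5 dpc (circles, replicate 1; squares, replicate 2; bars, mean of the 2 arrays; dotted line, median of all values). Both KO arrays lie below both WT arrays for Lmx1b, Kera, Emx2, Apod and Cadps2 and above them for Pax9 and Nfkbiz; Kera goes from 10.00 and 10.03 to 6.37 and 6.34.

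The 7 calls differed in how they stood up to other ways of fitting. Under 21 alternatives, Apod passed in 20, Kera in 19, Emx2 in 14, Cadps2 in 9, Lmx1b and Pax9 in 6 each and Nfkbiz in 5, and no difference changed sign. Fitted on the 4 arrays of 12.5 dpc alone, which is the comparison within 1 hybridisation series, Kera was the single gene that passed. Without WT replicate 2 of 12.5 dpc, 1 gene passed, Apod. Leaving out an array of another stage left 5 calls for either WT array of 11.5 dpc, 3 for either KO array of 11.5 dpc, 4 for either KO array of 13.5 dpc and 2 for either WT array of 13.5 dpc. Without WT replicate 1 of 12.5 dpc there were 4.

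Next to these come genes that did not pass, 7 lower and 10 higher, taken by smallest p among genes with non-overlapping arrays whose mean in either genotype was above the median of all values. Lower genes meet that filter through their WT level, and several, such as Slitrk1, Cbln2 and Epyc, were below the median in KO limbs. Higher genes meet it through their KO level, and the WT means of Rfx4 (6.00) and Cacna1e (5.92) were below the median. Slitrk1, a transmembrane protein that shapes synapses and neurites, read 6.82 and 7.41 in WT limbs and 5.35 and 3.98 in KO limbs (-2.45 ± 0.36, adjusted p = 0.0624). Cbln2, a secreted synapse organiser, read 6.37 and 7.26 in WT limbs and 5.24 and 4.88 in KO limbs (-1.76 ± 0.26, adjusted p = 0.0624). For both genes the WT and KO arrays were apart, but the replicates of 1 genotype were themselves spread by around a unit or more. The other lower genes were Tmeff2 (-1.01), Nrap (-0.59), Tmcc3 (-0.87, from -0.65 and -1.08 in the KO arrays), Epyc (-1.77, from -1.14 and -2.40) and Rnf151 (-0.58).

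Among higher genes that did not pass, Rfx4, a winged-helix factor linked to cilia, had the widest gap. It read 6.29 and 5.71 in WT limbs and 7.42 and 7.98 in KO limbs (1.71 ± 0.35, adjusted p = 0.150). Vegfd, a growth factor for lymphatic and blood vessels, read 7.18 and 7.01 in WT limbs and 7.64 and 7.93 in KO limbs (0.69 ± 0.11, adjusted p = 0.101). Hpse2 (0.97), Cep295 (0.94), the calcium channel subunit Cacna1e (0.92, from 1.15 and 0.69 in the KO arrays), the chloride channel Clcn2 (0.70), Smg1 (0.56), Pcgf5 (0.55), Ankrd6 (0.52) and Fam214b (0.45) made up the rest.

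Set separately against the WT mean, the KO arrays shared a small core and otherwise went different ways. Both differences subtract the same mean of 2 WT arrays, so genes shared by the KO arrays also carry any deviation of that mean. KO replicate 1 had 19 genes over 1 log2 unit below the WT mean and 26 above it; KO replicate 2 had 155 below and 32 above. In all, 10 genes were over 1 unit below in both, namely Alx1, Apod, Cbln2, Emx2, Epyc, Kera, Lmx1b, Lum, Slitrk1 and Unc5d, and 2 were above in both, Pax9 and Rfx4. In 5 genes the 2 arrays lay over 1 unit from the WT mean in opposite directions. Unc5d, a netrin receptor that misses the filter on level and was named here after its values were seen, read 6.15 and 6.13 in WT limbs and 5.12 and 4.31 in KO limbs (-1.42 ± 0.22, adjusted p = 0.0816).

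Without KO replicate 2, 37 genes (0.203%) passed, 14 lower and 23 higher; without KO replicate 1, 515 genes (2.83%) passed, 419 lower and 96 higher. In each of these fits the remaining KO array of 12.5 dpc is assumed to vary like the arrays of the other groups. Both fits use the same WT arrays of 12.5 dpc and the same arrays of the other stages, so their lists are not independent. All 7 genes called with both KO arrays were among the 37 and among the 515. The overlap of the 37 and the 515 was 10 genes, which is 27.0% of the first list and 1.94% of the second: the 7, and Cacna1e, Epyc and Slitrk1.

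**Figure D2:**
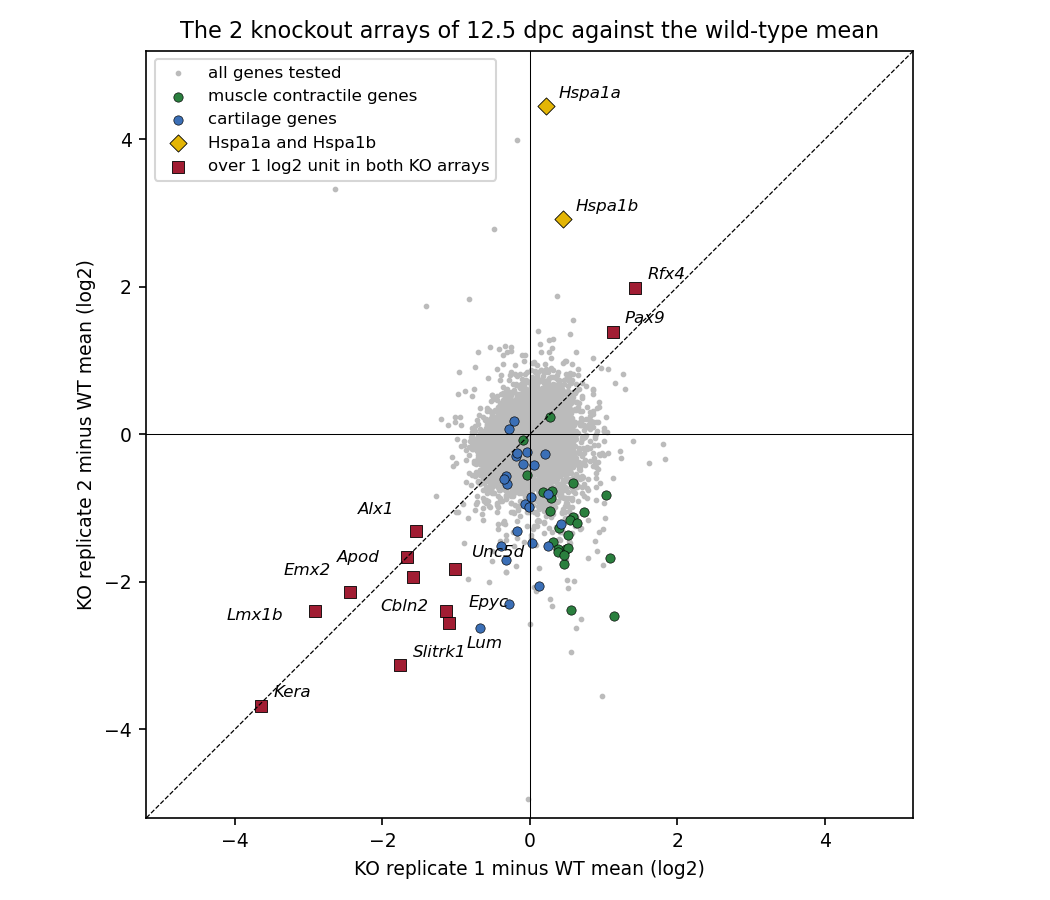
Difference of each KO array of 12.5 dpc from the WT mean (log2; x axis replicate 1, y axis replicate 2) for all 18193 genes, with muscle contractile genes in green, cartilage genes in blue, Hspa1a and Hspa1b as diamonds and the 12 genes over 1 unit away in both arrays as squares; the dashed line marks equal differences. Kera, Apod, Emx2 and Pax9 lie near the dashed line, whereas most muscle genes lie right of 0 for replicate 1 and below 0 for replicate 2.

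KO replicate 2 differed from the other 3 arrays in marked ways. Hspa1a, an inducible heat-shock chaperone, read 9.36 there, 5.13 in KO replicate 1, and 4.80 and 5.02 in WT limbs, and its neighbour Hspa1b read 9.81 against 7.34, 6.48 and 7.31. The probe sets of these near-identical paralogs may share signal. Other chaperones did not follow: Hsph1 read between 11.25 and 11.44 on all 4 arrays, and the 16 measured heat-shock genes had medians of 0.05 in KO replicate 1 and 0.01 in KO replicate 2. The transcripts of the sex chromosomes differed as well. Xist, made from the inactive X, read 12.45 in KO replicate 2, 6.49 in KO replicate 1, and 6.72 and 11.53 in WT replicates 1 and 2. The Y-linked gene Kdm5d read 3.16 in KO replicate 2, 8.08 in KO replicate 1, and 8.70 and 7.52 in WT limbs. These transcripts thus differed between the pools of either genotype. Their part in the differences below was not tested.

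Large steps between the KO arrays are given here for genes above the median of all values, leaving out the list of sex-linked genes. Chromosomes of the genes named here were not looked up, so X-linked genes can be among them. The largest steps down from KO replicate 1 to KO replicate 2 included Col14a1, a collagen of tendon and dermis, from 8.77 to 5.52 (WT 8.27 and 8.02). Myl4, an embryonic myosin light chain, went from 10.51 to 7.57 (WT 9.70 and 10.20). Agtr2, the type 2 angiotensin receptor of fetal mesenchyme, went from 9.68 to 7.12 (WT 9.61 and 9.77). In each case KO replicate 1 was within a unit of the WT arrays and KO replicate 2 was lower than both. Chodl, Sln, Aqp1 and Scara5 had steps of the same order. In the opposite direction, Mid1 went from 6.55 to 9.81 (WT 6.69 and 7.37) and the erythroid gene Hemgn from 6.90 to 9.54 (WT 7.38 and 8.04).

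Genes with a change of over 1 log2 unit in WT limbs between 11.5 and 12.5 dpc were placed on a scale on which 0 is the WT mean at 11.5 dpc and 1 the WT mean at 12.5 dpc. They were 108 genes higher at 12.5 dpc, among them 17 muscle contractile genes, 8 cartilage genes and 6 small leucine-rich proteoglycans, and 136 genes lower. For the 108, the median position was 1.17 in KO replicate 1 and 0.14 in KO replicate 2. Nearer to the WT mean of 11.5 dpc than to that of 12.5 dpc were 4 of the 108 (3.7%) in KO replicate 1 and 78 (72.2%) in KO replicate 2. For the 136, the median positions were 0.91 and 0.88. The 4 in KO replicate 1 were Kera, Apod, Slitrk1 and Epyc, and these were nearer to the WT mean of 11.5 dpc in KO replicate 2 as well. This measure was added after the data were seen, and since stage and hybridisation series cannot be told apart, it carries any difference between those series.

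**Figure D3:**
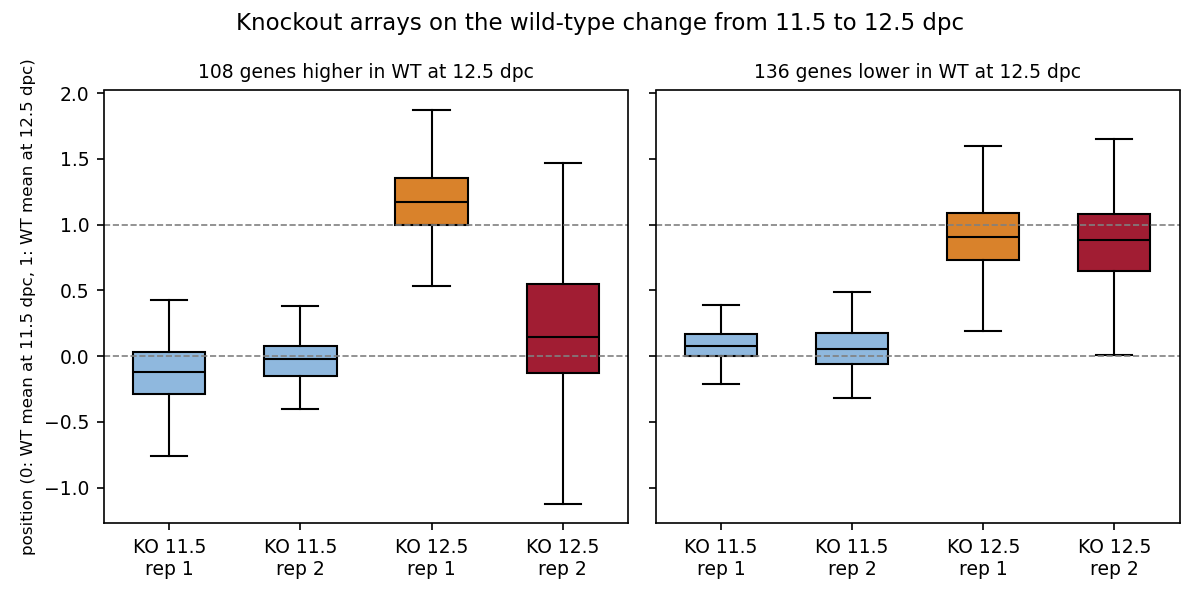
Position of single KO arrays (boxes: quartiles and median over genes; whiskers: up to 1.5 interquartile ranges) on the WT change from 11.5 dpc (0) to 12.5 dpc (1), for 108 genes higher and 136 genes lower at 12.5 dpc. For the genes that are higher, the median is 1.17 in KO replicate 1 of 12.5 dpc and 0.14 in KO replicate 2; for the genes that are lower it is 0.91 and 0.88.

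The skeletal lists leaned to lower values in KO limbs, with the larger part in KO replicate 2. Gene lists are given by their counts and medians beside those of all 18193 genes, of which 54.3% were negative, with a median of -0.02, and 6.62% were lower at the unadjusted p. In bulk RNA, fewer cells of a type and less RNA per cell cannot be told apart. All 24 measured cartilage genes had lower KO than WT means, with a median difference of -0.45; none passed the adjusted test and 7 were lower at the unadjusted p. In 13 of the 24 both KO arrays lay below both WT arrays, an arrangement found for 19.3% of all genes. The median was -0.13 in KO replicate 1 and -0.83 in KO replicate 2.

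Matn1, a matrilin of cartilage matrix, read 8.60 and 8.52 in WT limbs and 7.89 and 5.93 in KO limbs (-1.65 ± 0.53, adjusted p = 0.294). Cnmd, the cartilage glycoprotein chondromodulin, read 9.44 and 9.85 in WT limbs and 9.36 and 7.35 in KO limbs. Acan, the core protein aggrecan, read 8.60 and 8.87 in WT limbs and 8.41 and 7.03 in KO limbs. KO replicate 1 was just below the WT arrays for Cnmd and Acan and 0.67 below the WT mean for Matn1, and KO replicate 2 was lower by over a unit in all 3. The chondrogenic factor Sox9 differed by -0.04 and -0.24 in the KO arrays, and Col2a1, the main cartilage collagen, by 0.06 and -0.42.

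Of 15 measured small leucine-rich proteoglycans, 1 passed (Kera), 14 had lower KO means, and the list's median was -0.38. Lum, Dcn and Epyc lie beside Kera in 1 gene cluster, in the order Dcn, Lum, Kera, Epyc. Lumican, like keratocan a regulator of collagen fibrils, read 11.57 and 11.70 in WT limbs and 10.54 and 9.07 in KO limbs (-1.83 ± 0.38, adjusted p = 0.150). Epyc, a proteoglycan of early cartilage, read 6.93 and 7.25 in WT limbs and 5.95 and 4.69 in KO limbs (-1.77 ± 0.31, adjusted p = 0.104). Decorin read 9.68 and 10.18 in WT limbs and 9.62 and 8.07 in KO limbs (-1.09 ± 0.38, adjusted p = 0.341). Both KO arrays were under both WT arrays for all 3, by a small margin for decorin in KO replicate 1. Outside this cluster, Nyx, the proteoglycan nyctalopin, was dim and differed by -0.50 and -0.45 in the KO arrays. Ogn, or osteoglycin, differed by 0.99 in KO replicate 1 and by -1.29 in KO replicate 2, and Aspn, or asporin, by 0.99 and -1.77.

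Joint interzone genes had 14 negative differences among 16 measured, a median of -0.24 and no gene past the adjusted test. Gdf5, the growth factor that marks the interzone, read 10.13 and 10.47 in WT limbs and 9.79 and 8.73 in KO limbs (-1.04 ± 0.34, adjusted p = 0.305). Nog, the BMP antagonist noggin, read 7.49 and 8.39 in WT limbs and 7.61 and 6.07 in KO limbs, so that a KO and a WT array overlapped. Osr2, an odd-skipped factor of joints and synovial mesenchyme, read 8.72 and 8.99 in WT limbs and 8.52 and 8.03 in KO limbs. Barx1 had the largest positive value, 0.50 ± 0.19, carried by KO replicate 1 (0.84) more than by KO replicate 2 (0.16).

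Muscle genes separated the 2 KO pools. The 25 measured contractile genes had a median of 0.46 in KO replicate 1, where 2 were below the WT mean, and of -1.20 in KO replicate 2, where 24 were. The mean log2 level of the list was 9.05 and 9.31 in WT limbs, 9.66 in KO replicate 1 and 7.97 in KO replicate 2. Myh3, embryonic myosin, differed by 0.52 and -1.37, and Acta1, skeletal actin, read 11.29 and 9.07 in KO limbs against 10.69 and 10.97 in WT limbs. None of the 25 passed, and the arrays of the genotypes were not separated in the lower direction for any. The 17 measured progenitor and myogenic genes ran the same way to a smaller extent, with medians of 0.15 and -0.51. Within that list Myf6, a late myogenic factor, was low in both KO arrays at dim values, 4.07 and 4.0 against 4.51 and 4.76 (-0.60 ± 0.11, adjusted p = 0.126).

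Tendon genes and collagens showed the same division. The 21 tendon and ligament genes had medians of 0.28 in KO replicate 1 and -0.46 in KO replicate 2, and 1, Kera, passed. Scx, the transcription factor that marks tendon progenitors, differed by 0.42 and -0.16, and Tnmd, the tendon membrane protein tenomodulin, by 0.14 and -0.94. Mkx, a homeodomain factor of tendon, was under both WT values in both KO pools: 8.41 and 7.60 against 8.71 and 8.82 (-0.76 ± 0.30, adjusted p = 0.391). The 21 collagens outside cartilage had medians of 0.32 and -0.32, with no gene past the test.

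Dorsoventral genes other than Lmx1b did not pass. Of 12 measured, Wnt7a, the dorsal ectodermal signal upstream of Lmx1b, read 7.61 and 7.77 in WT limbs and 7.50 and 7.31 in KO limbs (-0.28 ± 0.13, adjusted p = 0.483). En1, the ventral ectodermal factor, was dim, with WT values of 4.31 and 4.73 and a difference of 0.09 ± 0.16. The LIM-homeodomain relatives made in distal mesenchyme leaned up in KO replicate 2, Lhx2 with -0.04 and 0.27 and Lhx9 with -0.12 and 0.45. Ldb2, a cofactor of LIM factors, read 9.76 and 9.91 in WT limbs and 9.60 and 9.36 in KO limbs (-0.35 ± 0.15, adjusted p = 0.427).

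Of 18 measured genes of the proximal limb and girdle, Emx2 passed and the median was -0.01. Alx1, an aristaless-type homeodomain factor of mesenchyme, read 5.63 and 6.30 in WT limbs and 4.43 and 4.65 in KO limbs (-1.42 ± 0.33, adjusted p = 0.182). Pax1, the close relative of Pax9 and a gene of the shoulder girdle, read 6.00 and 6.60 in WT limbs and 5.58 and 5.38 in KO limbs (-0.82 ± 0.38, adjusted p = 0.477). Both were dim and separated in the direction opposite to Pax9. Shox2, a factor of the proximal limb skeleton, read 11.62 and 11.72 in WT limbs and 11.32 and 11.25 in KO limbs (-0.39 ± 0.35). Irx5 differed by 0.70 in KO replicate 1 and -0.72 in KO replicate 2.

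Signalling lists had medians within 0.10 of 0. The 20 FGF and apical ridge genes had a median of 0.10, with 11 positive and 9 negative differences. In 6 both KO arrays lay above both WT arrays, beside 15.0% of all genes, and in 2 below, beside 19.3%. Fgf18, a ligand of the mesenchyme, read 7.60 and 7.75 in WT limbs and 8.25 and 8.63 in KO limbs (0.76 ± 0.20, adjusted p = 0.220), and the FGF target Spry4 read 8.19 and 8.20 against 8.53 and 8.44. Fgf8 read 6.35 and 5.75 in WT limbs and 5.11 and 6.17 in KO limbs (-0.41 ± 0.45), so that the genotypes overlapped. Of the 17 BMP genes, with a median of -0.05, Grem1, an antagonist that maintains the ridge, read 7.28 and 7.10 in WT limbs and 6.15 and 6.76 in KO limbs (-0.73 ± 0.26, adjusted p = 0.346). Of the 26 WNT and R-spondin genes, with a median of 0.03, Wnt11 read 9.10 and 9.01 in WT limbs and 8.78 and 8.26 in KO limbs (-0.53 ± 0.18, adjusted p = 0.311). Rspo1 differed by 1.80 in KO replicate 1 and -0.13 in KO replicate 2.

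The 17 hedgehog and anteroposterior genes, which include Pax9, had a median of 0.00. The Notch ligand Jag1 read 9.35 and 9.07 in WT limbs and 9.47 and 10.48 in KO limbs, a difference of 0.77 carried by KO replicate 2. Shh, the posterior signal, differed by -0.25 and 0.32. Of 14 retinoic acid genes, Rarb, a receptor and target of retinoic acid, read 8.12 in KO replicate 1 and 5.99 in KO replicate 2 against 7.96 and 8.17 in WT limbs. The 19 HOX genes had a median of 0.05, and Hoxc5 read 8.44 and 5.98 in KO limbs against 7.91 and 7.98 in WT limbs. For Rarb and Hoxc5, then, KO replicate 1 was at or above the WT level and KO replicate 2 about 2 units below it.

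Among 25 connective tissue genes Apod passed, and the median was -0.02. Nrp2, a receptor for semaphorins and VEGF, read 10.63 and 10.51 in WT limbs and 9.30 and 9.72 in KO limbs (-1.06 ± 0.19, adjusted p = 0.126). Lgr5, a receptor for R-spondins, read 7.88 and 7.82 in WT limbs and 9.14 and 8.46 in KO limbs (0.95 ± 0.23, adjusted p = 0.190). The genotypes were apart in both genes, with KO replicate 1 farther from WT than KO replicate 2. Nrp2 is also 1 of 30 axon guidance genes, none of which passed; Robo2, a Slit receptor, read 6.00 and 5.92 against 6.40 and 6.63 (0.56 ± 0.19).

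Genes usually named for neurons had 18 negative differences among 22, with a median of -0.15. The medians of the single KO arrays were -0.27 and -0.26, with 14 genes below the WT mean in KO replicate 1 and 16 in KO replicate 2. Cadps2 passed, and Slitrk1 and Cbln2 had the widest gaps. Of the 4 genes with positive differences, Cbln1 read 8.54 and 8.23 in WT limbs and 8.33 and 9.47 in KO limbs. Its difference of 0.51 ± 0.34 (adjusted p = 0.633) was carried by KO replicate 2. Kcnab1, a subunit of potassium channels, read 6.91 and 7.06 in WT limbs and 6.36 and 5.83 in KO limbs (-0.89 ± 0.20, adjusted p = 0.164). Markers of axons themselves were lower by less: Tubb3 differed by -0.51 and -0.29, Prph by -0.45 and -0.27 and Gap43 by -0.20 and -0.30. The mean level of the list was 6.32 and 6.51 in WT limbs and 6.18 and 5.99 in KO limbs, near the median of all values.

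Markers of other cell types in the limb were set beside these results. Surface ectoderm genes had 16 positive differences among 20, a median of 0.18 and none past the test; the mean level was 7.62 and 8.07 in WT limbs and 8.05 and 8.02 in KO limbs, so WT replicate 1 was the low array. Dsp, a desmosomal plaque protein, read 9.04 and 9.13 in WT limbs and 9.74 and 9.70 in KO limbs (0.63 ± 0.15, adjusted p = 0.182). The 13 erythroid genes had medians of -0.24 in KO replicate 1 and 0.33 in KO replicate 2, at mean levels of 8.35 and 8.92 against 8.55 and 8.61 in WT limbs. The 20 endothelial genes had medians of 0.01 and -0.08, the 17 macrophage genes of -0.10 and 0.07, and the 14 Schwann and melanocyte genes of 0.18 and -0.23. The 20 proliferation genes had medians of -0.10 and 0.13. The part of these shifts in the results above was not tested.

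**Figure D4:**
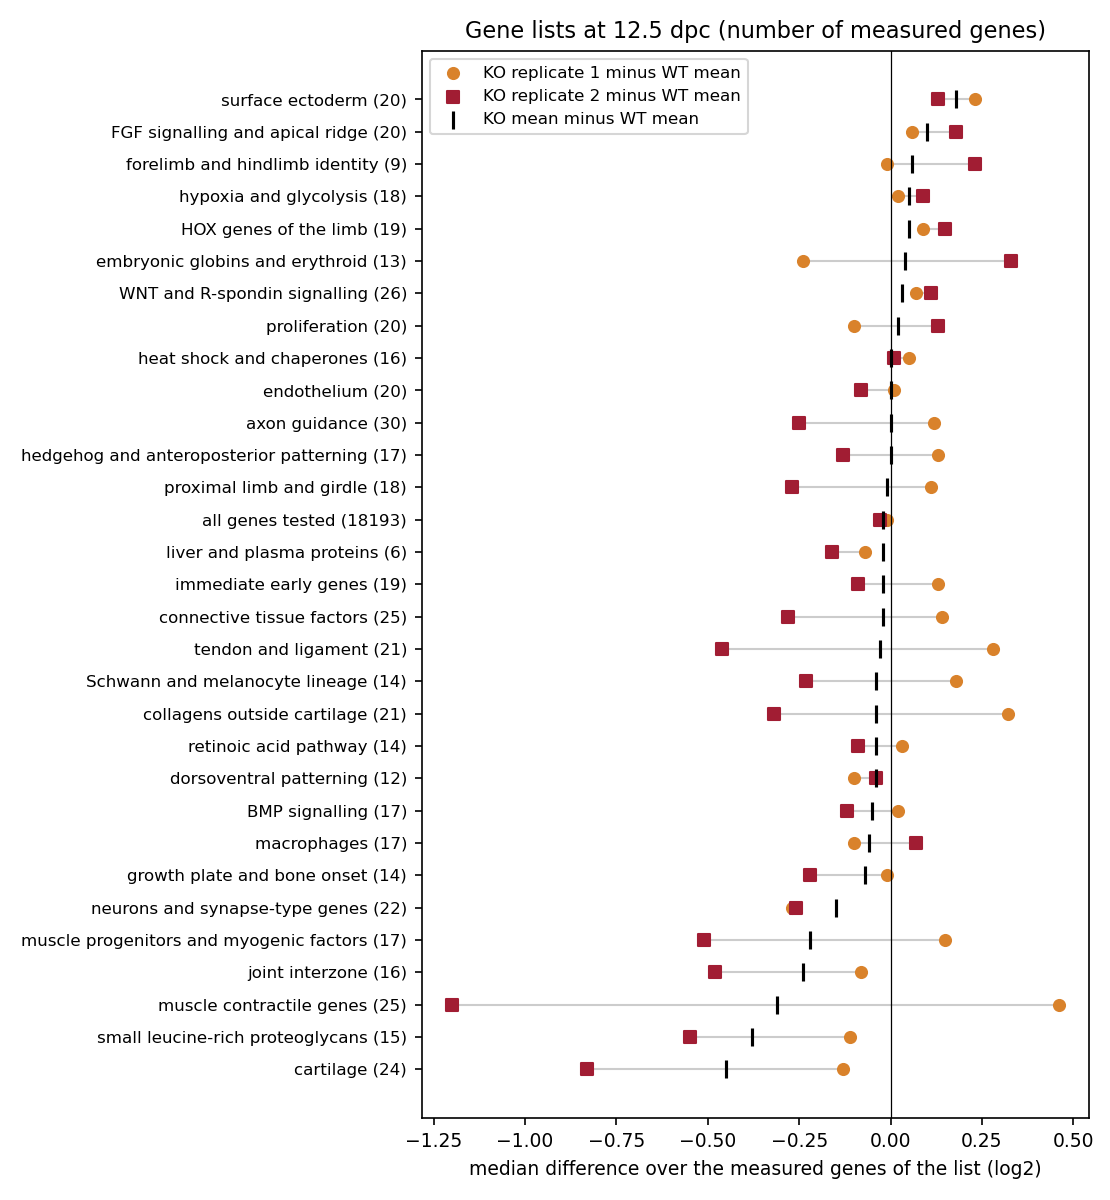
Median log2 difference from the WT mean over the measured genes of each list (number in brackets) for KO replicate 1 (circles), KO replicate 2 (squares) and the KO mean (bars) at 12.5 dpc; the sex-linked genes are left out of the plot. Muscle contractile genes run from 0.46 to -1.20 and cartilage genes from -0.13 to -0.83, while all 18193 genes lie at -0.01 and -0.03.

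The difference between genotypes at 12.5 dpc was set against that at 11.5 and 13.5 dpc. Tested with limma, 0 genes passed for a changed difference between 11.5 and 12.5 dpc, and 0 between 12.5 and 13.5 dpc. Without adjustment, 1132 genes (6.22%) had a p under 0.05 for the first change and 1546 (8.50%) for the second. The tissue also changes between the last 2 stages, since the 13.5 dpc samples lack the proximal limb and girdle. Hindlimb markers differed between these stages as well. Pitx1 lay between 5.76 and 6.06 on the 4 arrays of 12.5 dpc and between 9.88 and 10.3 on those of 13.5 dpc, Tbx4 between 7.89 and 8.17 and then between 10.0 and 10.12, and Hoxc10 between 4.66 and 5.93 and then between 7.35 and 9.71. The forelimb factor Tbx5 lay between 10.91 and 11.38 and then between 9.47 and 9.93. The part of the limbs pooled in the changes to 13.5 dpc was not tested. Kera differed by -1.66 at 11.5 dpc, -3.67 at 12.5 dpc and -3.02 at 13.5 dpc, and Apod by -0.88, -1.67 and -1.21. The change of the Kera difference from 11.5 to 12.5 dpc was -2.0 ± 0.46 (adjusted p = 0.686), beside a WT level that went from 7.65 and 7.77 to 10.00 and 10.03. KO limbs read 6.02 and 6.08 at 11.5 dpc and 6.37 and 6.34 at 12.5 dpc, and so stayed close to the median of all values at both stages.

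Lmx1b went the other way, with differences of -3.80, -2.66 and -2.05. Its WT values were alike at the first 2 stages (9.28 and 9.64, then 9.29 and 9.55), and its KO values were 5.60 and 5.72, then 6.50 and 7.02. At 13.5 dpc the KO arrays read 7.48 and 8.88 against 10.27 and 10.19, so KO replicate 2 of that stage was the KO array nearest to WT. Emx2 differed by -1.38, -2.29 and -1.16 and Cadps2 by -1.30, -0.99 and -0.36.

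The 2 genes that rose had smaller differences at the other stages. Pax9 differed by 0.31 at 11.5 dpc and 0.20 at 13.5 dpc, and the change of its difference was 0.94 ± 0.22 from 11.5 dpc (adjusted p = 0.686) and -1.06 ± 0.22 to 13.5 dpc (adjusted p = 0.339). Nfkbiz differed by -0.30 and 0.09, with changes of 1.07 ± 0.14 (adjusted p = 0.254) and -0.68 ± 0.14 (adjusted p = 0.339). Its WT values were 7.26 and 7.17 at 11.5 dpc, 6.62 and 6.66 at 12.5 dpc and 7.33 and 7.34 at 13.5 dpc. Its KO values were 6.92 and 6.90, then 7.28 and 7.53, then 7.46 and 7.38. The WT level of Nfkbiz was thus lowest at 12.5 dpc, where the KO values lay near the WT values of the other stages. Nfkbiz had the smallest p of all genes for the first change, followed by Gm19605 and Nrap; Foxf2, Calb2 and 1700019D03Rik had the smallest for the second. Epyc was lower at 12.5 dpc (-1.77) than at 11.5 dpc (-0.37) or 13.5 dpc (-0.31), and its WT values were 5.37 and 5.61, then 6.93 and 7.25, then 5.58 and 5.59. These comparisons share the arrays of 12.5 dpc and are therefore not independent of each other.

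**Figure D5:**
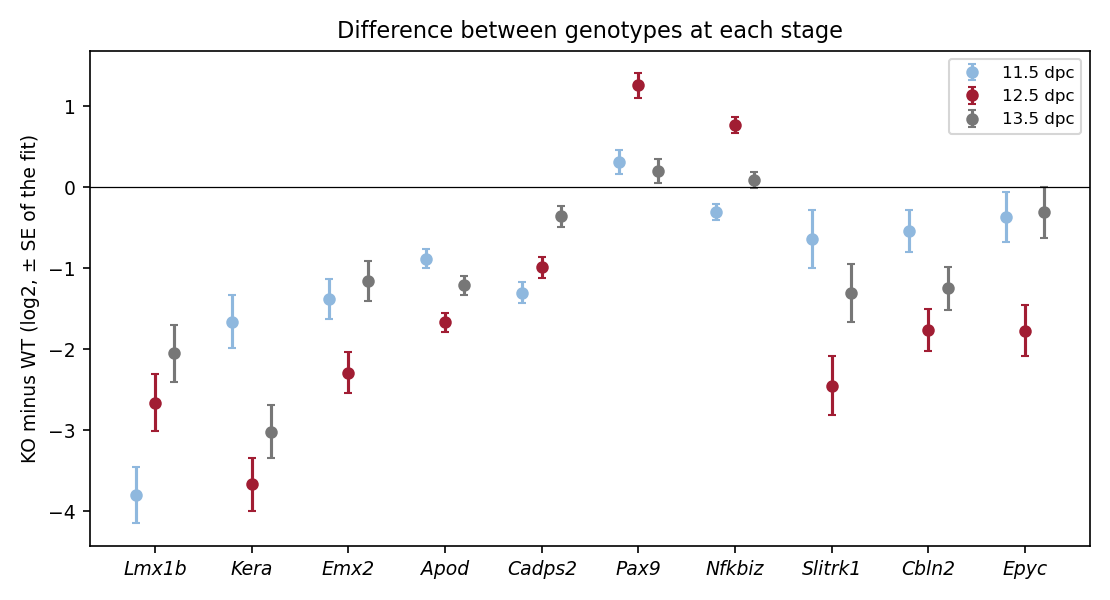
KO minus WT (log2, points) with the standard error of the fit (bars, 2 arrays per genotype and stage) at 11.5, 12.5 and 13.5 dpc for the 7 genes past the threshold at 12.5 dpc and for Slitrk1, Cbln2 and Epyc, which did not pass. The fit shares 1 spread over all 6 groups, so a gene's bars are equal at the 3 stages and do not show the spread within a stage. Kera, Emx2 and Apod are below 0 at all 3 stages, and Pax9 at 12.5 dpc (1.26) stands above its values of 0.31 and 0.20.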

How the data were processed

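Total RNA of pooled limbs was measured on Affymetrix GeneChip arrays of the mouse genome. The deposited values are log2 signals, for which the submitters' processing notes name RMA; the version used, and whether all 12 arrays were run together, are not given in the sources used here. Sorted columns differ by at most 0.242 log2 units. Of 45101 probe sets, 64 controls, 932 naming several genes and 9160 unnamed were left out, and 34945 named 1 gene in a platform annotation. One probe set per gene, that with the highest mean over 12 arrays, gave 18193 genes. limma 3.58.1 (R 4.3.3) fitted 6 group means to all 12 arrays with 1 shared spread (6 residual and 4.22 prior degrees of freedom). Its estimates were checked on simulated data with 1 spread per gene in all groups, which does not test whether the groups share a spread. The p-values were adjusted by Benjamini-Hochberg over all genes, at 0.05. The design allows 2 arrays per group, which limits the precision.

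Genes named were Lmx1b, Kera, Emx2, Apod and Pax9, the genes past the threshold filled up to 12 per direction by p, list members with the largest differences, and genes with the largest steps between the KO arrays. The members and the 31 gene lists (517 genes measured of 548) were chosen with earlier results of these data known.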

Additional observations from a re-analysis of the deposited data

How the results depend on the processing

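No difference of a gene followed through all alternatives changed sign. Against 7 genes at 12.5 dpc, 2 passed with array weights, 1 with the arrays of the stage alone, 4 with the mean of a gene's probe sets, 4 after quantile normalization, 8 without dim genes, 9 with an intensity trend and robust prior, and 5 probe sets with every probe set tested. Same-numbered arrays were not paired: the correlation of their deviations was 0.187 at 11.5 dpc, -0.12 at 12.5 dpc and -0.0869 at 13.5 dpc. With a replicate block 1 gene passed at 12.5 dpc, and 4 with the numbers of that stage crossed, a choice made after seeing the data. Leaving out 1 array gave 1 to 515 genes, and leaving out KO replicate 2 of both 12.5 and 13.5 dpc gave 94, with 6 of the 7 among them; Pax9 was the exception. For the changed difference from 11.5 to 12.5 dpc, 0 genes became 1 with the arrays of the stages alone, 0 to 38 without 1 array and 1 without both KO replicates 2; from 12.5 to 13.5 dpc the last 2 gave 0 to 46 and 9. The causes were not tested, beyond the fewer arrays or genes that some alternatives use. The median of the cartilage list stayed below 0 (-0.83 to -0.13), as did that of the proteoglycans (-0.55 to -0.11), while those of muscle contractile genes (-1.20 to 0.46) and tendon (-0.46 to 0.28) took both signs. Signal limits what can be read near 6.28, the median of all probe sets: the KO levels of Kera and Emx2 lie there, and no detection call was used.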

Other observations

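Of the 37 genes called without KO replicate 2, 27 were not called without KO replicate 1, which does not show that they were unchanged in KO replicate 2: Gm19605, for example, differed by -0.76 and -0.39 in the KO arrays and Dapk2 by -0.87 and -0.35. Phex, an endopeptidase of bone-forming cells, read 8.12 in KO replicate 1, 5.96 in KO replicate 2 and 6.39 and 6.19 in WT limbs. Postn, the matricellular protein periostin, read 10.21 and 9.22 in KO limbs against 9.47 and 9.35, and Eya1, a transcriptional cofactor of connective tissue, 9.60 and 8.92 against 8.75 and 8.76. Igfbp3, which binds insulin-like growth factors, read 10.99 and 10.24 against 10.20 and 10.14. In these 4 genes KO replicate 1 was the highest array of the stage, while KO replicate 2 lay within 0.33 of the WT mean. These 4, Dapk2 and Gm19605 are examples named after their values were seen.

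Hypoxia and glycolysis genes had 15 positive differences among 18, with medians of 0.02 and 0.09 in the KO arrays. Adm, the vasodilator peptide adrenomedullin, read 6.33 and 7.61 in KO limbs against 6.25 and 6.18 in WT limbs, and so was high in KO replicate 2. Fos, an immediate early factor, was above both WT arrays in both KO pools, 7.25 and 7.48 against 6.74 and 6.85 (0.57 ± 0.12, adjusted p = 0.150); the 19 immediate early genes had a median of -0.02. Growth plate genes had 10 negative differences among 14 and a median of -0.07. Sp7, the osteoblast factor osterix, read 6.14 and 5.99 in KO limbs against 6.55 and 6.52 in WT limbs (-0.47 ± 0.14, adjusted p = 0.267). The 9 genes of forelimb and hindlimb identity had a median of 0.06, and the 6 liver and plasma genes of -0.02.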
